A study of Arabidopsis thaliana with 17 samples.

Results

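The salt response of seedlings lacking most AtDGCR14L transcript was set against the salt responses of 2 lines that express the gene. For each gene, the 24 h minus 0 h change in atdgcr14l-1 was taken, and the mean of the same change in OE-6 and Col-0 was subtracted from it. All 17 libraries of the series entered this difference, 6 from atdgcr14l-1, 6 from OE-6 and 5 from Col-0. It is called the pooled difference here, is given in log2 units, and is positive where the mutant's change with salt was the more positive one.

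DGCR14-type proteins, ESS-2 in Caenorhabditis elegans, are nuclear proteins that associate with the spliceosome, the machinery that removes introns from transcripts. Salt stress in Arabidopsis combines an osmotic and an ionic component, and much of its transcriptional response runs through abscisic acid, a hormone made under water deficit. Jasmonate, a hormone made from fatty acids of the plastid by lipoxygenases, and anthocyanins, flavonoid pigments kept in the vacuole, also accumulate under several stresses.

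RNA of whole Arabidopsis thaliana seedlings was sequenced after 14 days in hydroponic culture, at 24 h and at 0 h of 200 mM NaCl. Each of the lines had 3 libraries per time, apart from Col-0 with 2 at 0 h: the mutant atdgcr14l-1, the line OE-6, and Col-0, the wild type. OE-6 is the atdgcr14l-1 mutant carrying 35S:AtDGCR14L, so the mutant allele is shared by the mutant and OE-6. The 35S promoter of OE-6 is a constitutive viral promoter, and OE-6 is 1 line. Seedlings kept 24 h without salt were not analysed here, so 24 h of salt and 24 h of age cannot be told apart. Nothing in the labels says that replicates came from separate cultures, and p-values then measure the spread between these libraries, which may be technical.

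Library totals ran from 53058673 to 56464259 counts, and 21282 of 27655 genes had enough counts to be tested. The first principal component held 66.7% of the variance and separated 24 h libraries from 0 h libraries. Replicate 3 of atdgcr14l-1 at 24 h stood at the far end of that component, and replicate 2 of OE-6 at 24 h stood alone on the second component, which held 6.97%. Of 17 root markers, 5 to 7 were at 0 in a group, and their summed level lay between 32.7 and 52.2 CPM (counts scaled to the library total) in all libraries. Photosynthesis genes summed to between 68710 and 166800 CPM. Flower markers summed to 9.82 to 11 CPM in atdgcr14l-1, 26.52 to 57.5 CPM in OE-6 and 8.92 to 10.3 CPM in Col-0 at 0 h. At 24 h they summed to 6.83 to 7.93 CPM in atdgcr14l-1, 5.68 to 92.1 CPM in OE-6 and 4.425 to 18.5 CPM in Col-0, and the groups overlapped. The part of these marker levels in the results below was not tested. In bulk seedlings, fewer cells of a type and less RNA per cell cannot be told apart.

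AtDGCR14L (AT3G07790, chr3:2487313-2489386, plus strand, 1 exon in the TAIR10.1 annotation) was measured at 11.3, 13.1 and 12.1 CPM in atdgcr14l-1, at 67.6, 88.3 and 68.4 CPM in OE-6 and at 74.2, 78.8 and 72.2 CPM in Col-0 at 24 h. At 0 h it was measured at 8.27, 8.52 and 6.76 CPM in atdgcr14l-1, at 43.2, 48.6 and 50.5 CPM in OE-6 and at 59.9 and 55.7 CPM in Col-0. The mutant libraries were the lowest at both times, and OE-6 was near Col-0. Relative to the mean of OE-6 and Col-0, the mutant level was lower by 2.63 ± 0.11 at 24 h (log2 ± SE, adjusted p = 1.02e-08) and lower by 2.74 ± 0.12 at 0 h (adjusted p = 8.88e-09). All adjusted p-values here come from edgeR's quasi-likelihood test with Benjamini-Hochberg adjustment over the 21282 genes, and a gene was called at an adjusted p below 0.05. The pooled difference of AtDGCR14L itself was 0.11 ± 0.14 (adjusted p = 0.839), so the size of the deficit did not detectably change with salt.

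Most genes changed with salt, and few were called as changing differently in the mutant. The 24 h level differed from the 0 h level for 12336 genes (58%) in atdgcr14l-1 and for 13659 genes (64.2%) on the mean of OE-6 and Col-0. The pooled difference was called for 15 genes (0.0705%), all of them positive, and for 0 genes with a negative value. At an unadjusted p below 0.05 there were 1413 positive and 909 negative genes, 10.9% of those tested. The median pooled difference over all tested genes was 0.00334, with quartiles of -0.17 and 0.181. The plot of the salt response in the mutant against that of the expressing lines shows the 15 genes above the diagonal that most genes follow.

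**Figure D1:**
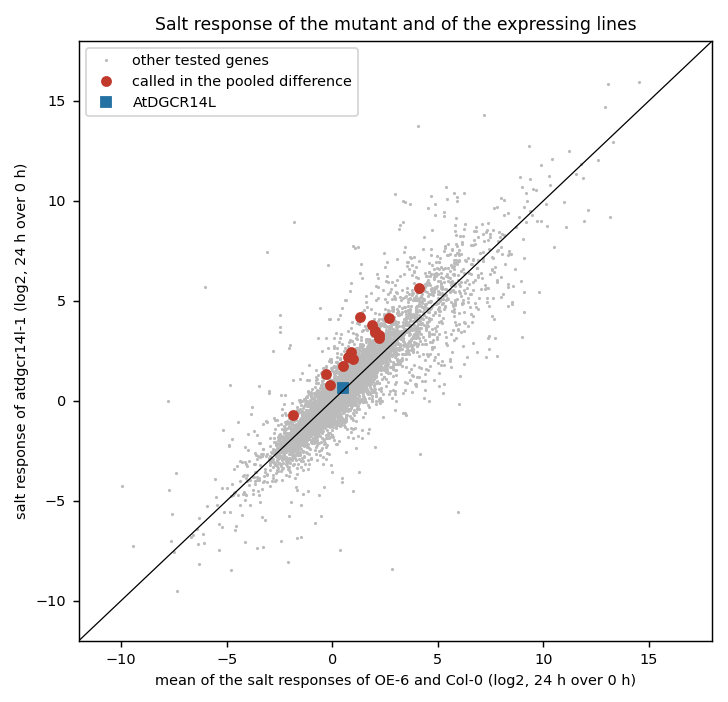
Salt response of each tested gene in atdgcr14l-1 (vertical axis, log2 of 24 h over 0 h) against the mean salt response of OE-6 and Col-0 (horizontal axis, same unit), with equal responses on the line. The 15 called genes (red) lie above the line, by 0.87 to 2.88, and AtDGCR14L (blue square) lies 0.11 above it.

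The 15 genes fell into 3 shapes by where the mutant libraries stood apart. For 5 genes every mutant library was below every OE-6 and Col-0 library at 0 h and above every one of them at 24 h. For 8 genes the mutant libraries stood apart at 24 h alone, and for 2 genes at 0 h alone. In all, 13 of the 15 stood fully above at 24 h and 7 stood fully below at 0 h. Over all tested genes, 8.27% stood fully above and 6.41% fully below at 24 h, and 12.1% stood fully below at 0 h. These positions come from the same libraries as the pooled difference and describe it, since the pooled difference is the 24 h gap minus the 0 h gap. With salt, 14 of the 15 rose in atdgcr14l-1 (31.3% of all tested genes did) and 1 fell (26.7% did). On the mean of OE-6 and Col-0 12 rose (33.9% of all tested genes did) and 2 fell (30.2% did). The 15 all had a positive pooled difference, which favours rises in the mutant.

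**Figure D2:**
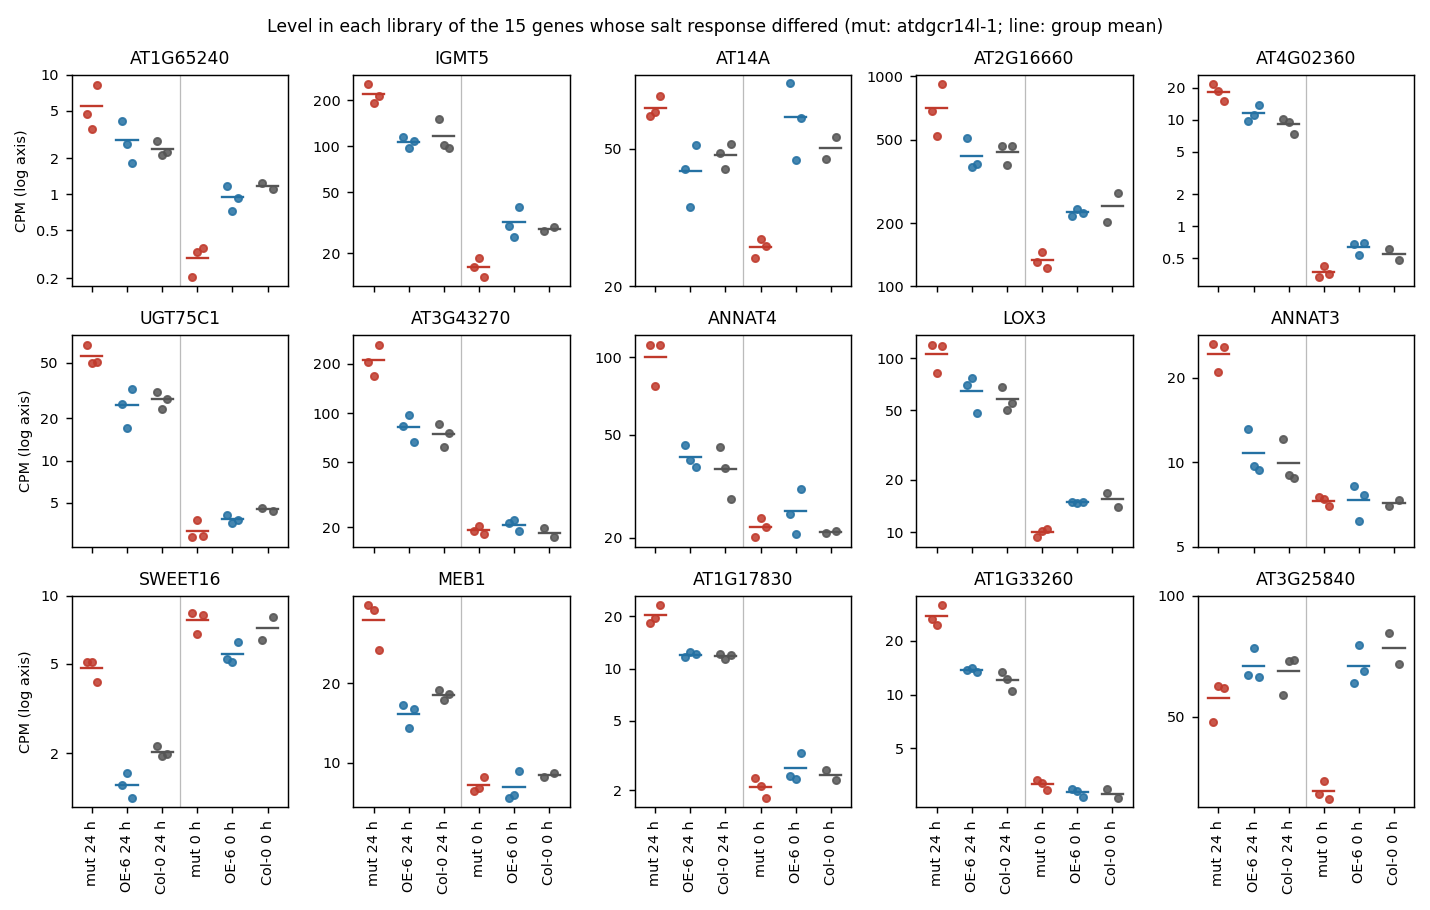
Level of each of the 15 genes in every library (CPM, log axis), with 24 h groups left of the grey line and 0 h groups right of it; points are libraries and bars are group means. For 13 of the 15 genes every atdgcr14l-1 point at 24 h lies above all OE-6 and Col-0 points at 24 h.

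Among the 5 genes that stood apart at both times, IGMT5 (AT1G76790, chr1:28822186-28823727, minus strand, 3 exons) encodes an O-methyltransferase that modifies indole glucosinolates, defence compounds of the cabbage family. IGMT5 was at 255, 191 and 213 CPM in atdgcr14l-1, at 115, 98.2 and 108 CPM in OE-6 and at 151, 103 and 97.5 CPM in Col-0 at 24 h. At 0 h IGMT5 was at 16.2, 18.5 and 14.0 CPM in atdgcr14l-1, at 30.0, 25.4 and 40.0 CPM in OE-6 and at 28.1 and 29.5 CPM in Col-0. The groups did not overlap at either time, low in the mutant at 0 h and high at 24 h. IGMT5 rose by 3.76 ± 0.20 in atdgcr14l-1 and by 1.89 on the mean of OE-6 and Col-0, a pooled difference of 1.87 ± 0.23 (adjusted p = 0.0122). It kept its call in 22 of 25 alternative analyses, the most of the 15. The others kept their calls in 9 to 21 of the analyses that tested them.

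AT14A (AT3G28290, chr3:10547441-10549401, plus strand, 2 exons) encodes a membrane protein with sequence similarity to animal integrins. AT14A was at 62.1, 63.6 and 71.2 CPM in atdgcr14l-1, at 43.8, 33.8 and 51.3 CPM in OE-6 and at 48.6, 43.7 and 51.4 CPM in Col-0 at 24 h. At 0 h AT14A was at 24.2, 27.4 and 26.2 CPM in atdgcr14l-1, at 77.2, 46.5 and 61.1 CPM in OE-6 and at 46.6 and 54.0 CPM in Col-0. The mutant was the lowest group before salt and the highest after it. AT14A rose in atdgcr14l-1 by 1.34 ± 0.17 and fell on the mean of OE-6 and Col-0 by 0.29 (adjusted p = 0.0469). That fall was mostly in OE-6, whose mean went from 61.6 CPM at 0 h to 43.0 CPM at 24 h. The Col-0 mean went from 50.3 to 47.9 CPM. The pooled difference of AT14A was 1.63 ± 0.21 (adjusted p = 0.0122). The neighbouring copy AT3G28300 carries the same symbol, and reads could be split between both. AT3G28300 had a pooled difference of 1.95 ± 1.13 (adjusted p = 0.569) and varied in OE-6 at 24 h, at 22.3 ± 19.96 CPM (SD, n = 3), so the value of AT14A is uncertain.

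AT2G16660 (chr2:7218654-7221890, minus strand), a member of the major facilitator superfamily of membrane transporters, was at 684, 519 and 922 CPM in atdgcr14l-1, at 507, 372 and 381 CPM in OE-6 and at 467, 377 and 467 CPM in Col-0 at 24 h. At 0 h AT2G16660 was at 131, 146 and 123 CPM in atdgcr14l-1, at 217, 235 and 223 CPM in OE-6 and at 203 and 279.5 CPM in Col-0. Replicate 2 of atdgcr14l-1 exceeded the highest OE-6 library narrowly at 24 h, while the 0 h groups were well apart. The pooled difference of AT2G16660 was 1.53 ± 0.23 (adjusted p = 0.0315).

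LOX3 (AT1G17420, chr1:5977323-5981521, plus strand, 8 exons) encodes a lipoxygenase of the jasmonate pathway. LOX3 was at 119, 82.2 and 117 CPM in atdgcr14l-1, at 70.1, 76.5 and 48.1 CPM in OE-6 and at 68.3, 50.4 and 55.6 CPM in Col-0 at 24 h. At 0 h LOX3 was at 9.33, 10.2 and 10.4 CPM in atdgcr14l-1, at 14.9, 14.6 and 14.96 CPM in OE-6 and at 16.9 and 14.0 CPM in Col-0. The groups did not overlap at either time. LOX3 had a pooled difference of 1.39 ± 0.21 (adjusted p = 0.0315), made of a gap of 0.79 ± 0.14 at 24 h and of -0.60 ± 0.16 at 0 h.

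AT4G02360 (chr4:1041086-1041802, plus strand, 1 exon) encodes a protein with the DUF538 domain of unknown function. AT4G02360 was at 21.6, 18.5 and 15.01 CPM in atdgcr14l-1, at 9.65, 11.1 and 13.7 CPM in OE-6 and at 10.2, 9.58 and 7.43 CPM in Col-0 at 24 h. At 0 h AT4G02360 was at 0.334, 0.423 and 0.354 CPM in atdgcr14l-1, at 0.682, 0.535 and 0.691 CPM in OE-6 and at 0.611 and 0.485 CPM in Col-0. It had the largest salt response of the 15 in the mutant, 5.62 ± 0.22, against 4.11 on the mean of OE-6 and Col-0. Its pooled difference was 1.52 ± 0.25 (adjusted p = 0.0431).

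The 250 bases upstream of the annotated start are shown for the genes of the 15 that hold a full G-box and for LOX3, since ABA-responsive and jasmonate-responsive promoters are known for these letters. Capitals mark matches, on either strand, to the motifs spelled out after the sequences. All 3 lie on the plus strand of TAIR10.1 (RefSeq), at chr4:1040836-1041085, chr1:12064073-12064322 and chr1:5977073-5977322.
AT4G02360: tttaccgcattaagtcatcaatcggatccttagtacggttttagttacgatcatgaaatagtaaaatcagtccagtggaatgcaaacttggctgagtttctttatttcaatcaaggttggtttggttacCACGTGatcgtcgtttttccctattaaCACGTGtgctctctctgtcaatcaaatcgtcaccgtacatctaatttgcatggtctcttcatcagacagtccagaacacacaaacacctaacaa
AT1G33260: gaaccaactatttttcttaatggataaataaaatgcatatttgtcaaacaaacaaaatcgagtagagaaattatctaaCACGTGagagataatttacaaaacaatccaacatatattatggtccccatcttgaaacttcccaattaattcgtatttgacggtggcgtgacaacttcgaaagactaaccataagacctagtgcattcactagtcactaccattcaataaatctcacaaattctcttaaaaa
LOX3: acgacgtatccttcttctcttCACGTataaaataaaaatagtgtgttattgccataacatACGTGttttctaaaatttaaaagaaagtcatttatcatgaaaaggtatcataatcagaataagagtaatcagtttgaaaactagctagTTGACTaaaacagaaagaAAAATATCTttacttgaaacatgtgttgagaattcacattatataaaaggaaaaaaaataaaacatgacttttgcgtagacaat
The window from 250 bases before to 50 bases after the start held ACGTG, the core of the ABA-responsive element, in 7 of the 15 genes (46.7%), against 27.7% of 21145 promoters of tested genes. The G-box, CACGTG, which contains ACGTG, was in 2 of the 15 (13.3%, against 8.73%) and CCGAC, the core of the dehydration-responsive element, in 2 (13.3%, against 16%). TTGAC followed by C or T, the W-box of WRKY factors, was in 4 (26.7%, against 32.5%), and AAAATATCT, the evening element of clock-controlled genes, in 1 (6.67%, against 3.04%). The heat shock element was in 0 of the 15 and in 0.52% of all. With 15 genes these shares are descriptions, and a match is not a site.

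Of the 8 genes that stood apart at 24 h alone, 0 were called in either direction at 0 h, beside 5.57% of all tested genes. The grouping itself favours that 0, and nothing is read from it. UGT75C1 (AT4G14090, chr4:8122188-8123835, minus strand, 1 exon) encodes the anthocyanin 5-O-glucosyltransferase. UGT75C1 was at 67.4, 49.97 and 50.3 CPM in atdgcr14l-1, at 25.2, 17.1 and 32.5 CPM in OE-6 and at 31.0, 23.5 and 27.8 CPM in Col-0 at 24 h. At 0 h UGT75C1 was between 2.82 and 3.73 CPM in atdgcr14l-1 and between 3.58 and 4.59 CPM in the OE-6 and Col-0 libraries, and the groups overlapped. The pooled difference was 1.48 ± 0.25 (adjusted p = 0.0472), the closest of the 15 to the threshold.

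The annexin genes ANNAT4 (AT2G38750, chr2:16196265-16198832, minus strand) and ANNAT3 (AT2G38760, chr2:16200944-16202669, plus strand) are divergent neighbours whose starts lie 2112 bases apart. Annexins are proteins that bind membranes in the presence of calcium. ANNAT4 was at 111, 77.3 and 112 CPM in atdgcr14l-1, at 45.7, 39.9 and 37.4 CPM in OE-6 and at 45.0, 37.2 and 28.2 CPM in Col-0 at 24 h. ANNAT3 was at 26.4, 20.9 and 25.7 CPM in atdgcr14l-1, at 13.1, 9.74 and 9.42 CPM in OE-6 and at 12.1, 9.01 and 8.79 CPM in Col-0 at 24 h. Both neighbours were high in every mutant library, with no overlap. At 0 h the gaps were -0.07 ± 0.16 for ANNAT4 and 0.01 ± 0.14 for ANNAT3. The pooled differences were 1.44 ± 0.23 for ANNAT4 and 1.23 ± 0.20 for ANNAT3 (adjusted p = 0.0315 each). Neither promoter window held any of the motifs searched.

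AT3G43270 (chr3:15222125-15225495, minus strand), annotated in the superfamily of pectin methylesterases and their inhibitors, which act on cell wall pectin, was at 206, 168 and 262 CPM in atdgcr14l-1, at 83.4, 97.5 and 66.5 CPM in OE-6 and at 86.0, 62.0 and 75.2 CPM in Col-0 at 24 h. The lowest mutant library was well above the highest of the others. At 0 h AT3G43270 differed by -0.04 ± 0.15, and its pooled difference was 1.47 ± 0.21 (adjusted p = 0.0266).

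SWEET16 (AT3G16690, chr3:5684317-5686544, minus strand), a sugar transporter of the vacuole membrane, was the 1 gene of the 15 that fell with salt in the mutant. SWEET16 was at 5.07, 5.07 and 4.14 CPM in atdgcr14l-1, at 1.44, 1.63 and 1.27 CPM in OE-6 and at 2.15, 1.95 and 1.98 CPM in Col-0 at 24 h. At 0 h SWEET16 was at 8.36, 6.75 and 8.19 CPM in atdgcr14l-1, at 5.23, 5.08 and 6.23 CPM in OE-6 and at 6.37 and 7.997 CPM in Col-0. It fell by 0.71 ± 0.15 in atdgcr14l-1 and fell by 1.88 on the mean of OE-6 and Col-0. The positive pooled difference of SWEET16, 1.17 ± 0.18 (adjusted p = 0.0315), was therefore a smaller fall.

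The other genes of this shape were MEB1, AT1G17830 and AT1G33260. MEB1 (AT4G27860), a membrane protein of the ER body, a compartment that stores defence enzymes, was at 26.7 to 39.6 CPM in atdgcr14l-1 and at 13.5 to 18.9 CPM in the OE-6 and Col-0 libraries at 24 h, with a pooled difference of 1.11 ± 0.17 (adjusted p = 0.0315). AT1G17830, a DUF789 protein, was at 18.23 to 23.2 CPM in atdgcr14l-1 and at 11.39 to 12.4 CPM in OE-6 and Col-0 at 24 h, with a pooled difference of 1.05 ± 0.17 (adjusted p = 0.0431). AT1G33260, a protein kinase, was at 24.4 to 31.7 CPM in atdgcr14l-1 and at 10.5 to 14.1 CPM in OE-6 and Col-0 at 24 h. AT1G33260 had a pooled difference of 0.94 ± 0.14 (adjusted p = 0.0315), and at 0 h its gap was 0.16 ± 0.11. The promoter of AT1G33260 printed above holds 1 G-box.

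The other 2 genes stood apart at 0 h alone, below OE-6 and Col-0. AT1G65240 (chr1:24230867-24233523, minus strand, 10 exons), annotated as an aspartyl protease, was at 4.66, 3.53 and 8.23 CPM in atdgcr14l-1, at 4.13, 2.63 and 1.81 CPM in OE-6 and at 2.81, 2.13 and 2.24 CPM in Col-0 at 24 h. At 0 h AT1G65240 was at 0.204, 0.331 and 0.354 CPM in atdgcr14l-1, at 1.17, 0.720 and 0.927 CPM in OE-6 and at 1.24 and 1.11 CPM in Col-0. The 24 h groups overlapped by 1 OE-6 library, and the 0 h groups did not overlap. At 24 h the gap of AT1G65240 was 1.06 ± 0.27, with an adjusted p of 0.0166. Its 0 h gap was -1.82 ± 0.36, with an adjusted p of 0.00696. Its pooled difference of 2.88 ± 0.45 (7.37-fold, adjusted p = 0.0315) was the largest of the 15.

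AT3G25840 (chr3:9451861-9457554, minus strand, 15 exons), known as PRP4KA, is a nuclear kinase related to the splicing kinase PRP4. AT3G25840 was at 48.6, 59.6 and 59.0 CPM in atdgcr14l-1, at 63.6, 74.1 and 62.6 CPM in OE-6 and at 56.6, 68.7 and 69.0 CPM in Col-0 at 24 h. At 0 h AT3G25840 was at 32.2, 34.6 and 31.2 CPM in atdgcr14l-1, at 60.5, 75.5 and 64.8 CPM in OE-6 and at 80.6 and 67.8 CPM in Col-0. The mutant was apart at 0 h, where its level was lower by 1.11 ± 0.11 (adjusted p = 3.26e-05). At 24 h the gap was -0.24 ± 0.10 (adjusted p = 0.114) and the groups overlapped. AT3G25840 rose with salt in atdgcr14l-1 by 0.77 ± 0.12, and its change on the mean of OE-6 and Col-0 was -0.10 (adjusted p = 0.333). The pooled difference was 0.87 ± 0.15 (adjusted p = 0.0431).

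**Figure D3:**
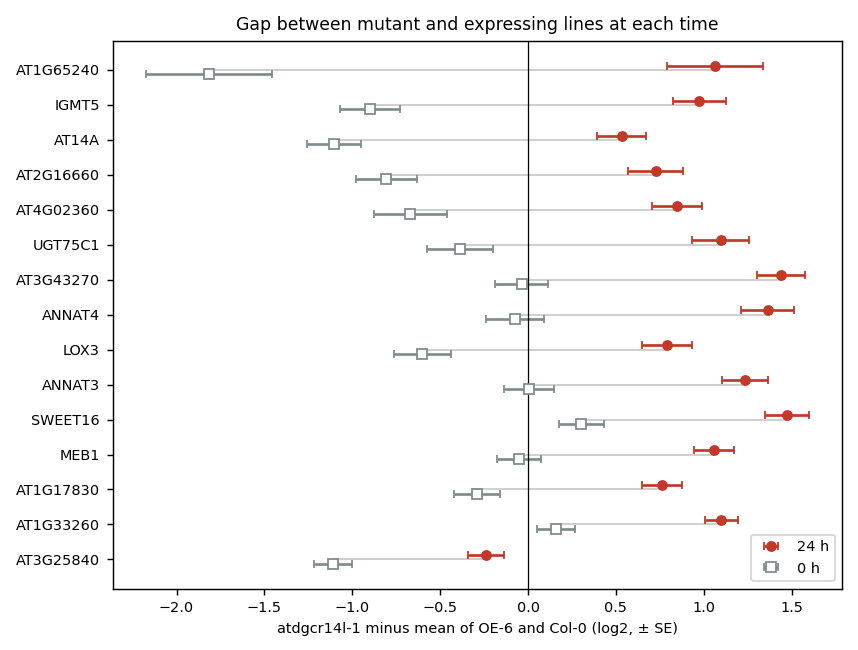
Gap between atdgcr14l-1 and the mean of OE-6 and Col-0 (log2, ± SE) at 24 h (filled circles) and at 0 h (open squares) for the 15 called genes. The 24 h gap is above 0 for 14 genes, AT3G25840 being the exception, and the 0 h gap is below 0 for 12.

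Taken by time, the mutant differed from the mean of OE-6 and Col-0 for 3984 genes at 24 h (18.7%), 2370 of them higher (11.1%) and 1614 lower (7.58%), and for 1185 genes at 0 h (5.57%), 786 of them higher (3.69%) and 399 lower (1.87%). Of the 15 genes, 14 were higher in the mutant at 24 h and 6 were lower at 0 h (3 without replicate 1 of atdgcr14l-1 at 0 h). The rule that chose the 15 used the same libraries, and nothing is read from these counts. Over all genes, the 24 h count was 1940 and the 0 h count 1504 without replicate 3 of atdgcr14l-1 at 24 h. Without both libraries that stood apart, the counts were 2303 at 24 h and 2243 at 0 h, so the larger 24 h count rested on them. The 0 h count was 586, 619 and 574 without replicates 1, 2 and 3 of atdgcr14l-1 at 0 h, and 682 and 686 without replicates 1 and 2 of Col-0 at 0 h.

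The single-line comparisons share the mutant libraries, and their values stand side by side. Against Col-0 alone, the difference of salt responses ran from 0.97 to 3.17 over the 15 genes, with adjusted p-values from 0.105 to 0.212. Against OE-6 alone, the differences ran from 0.77 to 2.59, with adjusted p-values from 0.0175 to 0.132. The OE-6 minus Col-0 difference of salt responses was at most 0.58 in size over the 15. Across all genes, 1 gene was called against Col-0 (0.0047%), 2 genes were called against OE-6 (0.0094%), IGMT5 and AT14A, and 0 genes were called between OE-6 and Col-0 (0%). The OE-6 against Col-0 comparison had 914 genes at an unadjusted p below 0.05, and DESeq2 called 8. Without replicate 2 of atdgcr14l-1 at 24 h, the counts were 14 against Col-0 and 68 against OE-6. Without any one of the 3 mutant libraries at 0 h the count against Col-0 was 0.

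The gene called against Col-0, HEI10 (AT1G53490), encodes a RING-domain protein of meiotic crossover formation. HEI10 was at 11.3, 10.4 and 11.5 CPM in atdgcr14l-1, at 2.44, 1.54 and 1.60 CPM in OE-6 and at 2.63, 2.13 and 2.31 CPM in Col-0 at 24 h. At 0 h HEI10 was at 8.14, 8.94 and 8.82 CPM in atdgcr14l-1, at 1.53, 2.38 and 1.46 CPM in OE-6 and at 8.60 and 8.25 CPM in Col-0. OE-6 was low at both times, while Col-0 was low at 24 h and level with the mutant at 0 h. The difference was 2.196 ± 0.28 against Col-0 (adjusted p = 0.0262) and 0.31 ± 0.27 against OE-6 (adjusted p = 0.740), and the pooled difference was 1.251 ± 0.23 (adjusted p = 0.0624).

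Just outside the threshold were AT2G19780, a leucine-rich repeat protein (0.67 ± 0.12, adjusted p = 0.0514), AT1G03940, an acyltransferase (1.06 ± 0.18, adjusted p = 0.0524), and MHX, a magnesium and proton exchanger (0.85 ± 0.15, adjusted p = 0.0529). The negative pooled differences with the smallest p-values, picked for those values, also missed it. SCPL34, a serine carboxypeptidase-like protein, had -0.68 ± 0.13 (adjusted p = 0.0624), and CIPK7, a kinase of the calcineurin B-like calcium sensors, had -0.92 ± 0.18 (adjusted p = 0.0758).

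The gene lists below were chosen with earlier results of these data known, so their medians and counts are descriptions and not tests. Of 26 jasmonate genes, LOX3 alone was called, while 24 had a value above 0, as did 50.5% of all tested genes. Of the 26, 15 had a value above 0 with an unadjusted p below 0.05, beside 1413 of all 21282 genes. The list median was 0.90, and it was 0.989 without MYC2 and CYP94B3, which were listed at 0 in every library of at least 1 group. MYC2, a widely expressed regulator of jasmonate responses, was listed at 0 in most libraries, so a 0 in these files may be a failed estimate. At 24 h, 12 of the 26 were higher in the mutant, where 11.1% of tested genes were, and 0 lower. At 0 h, 0 were higher (3.69% of all tested genes were) and 2 were lower (1.87% were), LOX2 and LOX3.

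Examples from synthesis and response, named after their values were seen, show the levels. AOS, the allene oxide synthase that acts after lipoxygenase, averaged 699 ± 147 CPM in atdgcr14l-1, 375 ± 84.7 CPM in OE-6 and 381 ± 62.5 CPM in Col-0 at 24 h (SD, n = 3 each). OPR3, the reductase of the later peroxisomal step, averaged 365 ± 38.5 CPM in atdgcr14l-1, 191 ± 34.4 CPM in OE-6 and 185 ± 36.9 CPM in Col-0 at 24 h (SD, n = 3 each). JAZ10, a repressor induced by jasmonate, averaged 55.3 ± 11.7 CPM in atdgcr14l-1, 21.1 ± 9.81 CPM in OE-6 and 22.3 ± 3.63 CPM in Col-0 at 24 h (SD, n = 3 each). All 3 were higher in the mutant at 24 h, by 0.89 ± 0.15 (AOS), 0.96 ± 0.14 (OPR3) and 1.35 ± 0.22 (JAZ10). Their pooled differences were 1.01 ± 0.23, 0.78 ± 0.21 and 1.37 ± 0.35, with adjusted p-values of 0.127, 0.191 and 0.184. COI1, the jasmonate receptor subunit, had 0.04 ± 0.08.

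Anthocyanin and flavonoid genes were the list with the highest median, 1.04 over 18 genes. UGT75C1 alone was called in the pooled difference. Of the 18, 14 had a value above 0 (50.5% of all tested genes did) and 9 had an unadjusted p below 0.05 (10.9% did). At 24 h, 13 of the 18 were higher in the mutant, beside 11.1% of all tested genes, and 0 lower. At 0 h 0 were called in either direction with all libraries, beside 5.57% of all tested genes. However, 3 were higher at 0 h without replicate 2 of OE-6 at 24 h or without both libraries that stood apart. At 0 h 1 was higher without replicate 1 of atdgcr14l-1 at 24 h, as with DESeq2, and 1 was lower without replicate 1 of Col-0 at 24 h. DFR, dihydroflavonol reductase, averaged 121 ± 20.6 CPM in atdgcr14l-1, 31.6 ± 21.5 CPM in OE-6 and 29.5 ± 6.91 CPM in Col-0 at 24 h (SD, n = 3 each). TT8, a bHLH activator of the pathway, averaged 10.6 ± 2.16 CPM in atdgcr14l-1, 2.58 ± 1.45 CPM in OE-6 and 2.26 ± 0.167 CPM in Col-0 at 24 h (SD, n = 3 each). These pathway genes, like CHS, the chalcone synthase at the pathway's entry, stood higher in the mutant at 24 h by 1.99 ± 0.39 (DFR), 2.13 ± 0.34 (TT8) and 1.92 ± 0.39 (CHS). CHS also had a positive gap at 0 h, 1.07 (adjusted p = 0.194), and its pooled difference was 0.85 ± 0.59 (adjusted p = 0.652). The flavonol genes MYB12, MYB111 and FLS1 had pooled differences of -0.80 ± 0.81, -0.32 ± 0.38 and -0.18 ± 0.63.

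**Figure D4:**
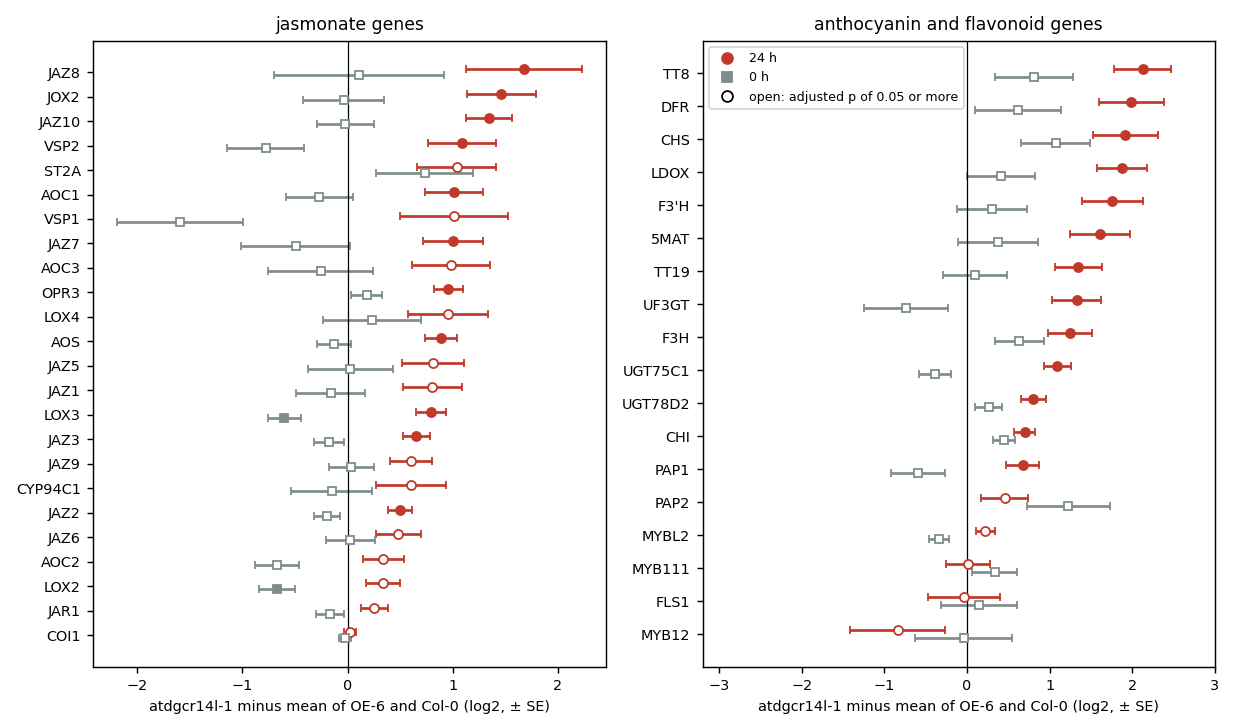
Gap between atdgcr14l-1 and the mean of OE-6 and Col-0 (log2, ± SE) at 24 h (circles) and 0 h (squares) for the jasmonate genes (left, without the 2 listed at 0 in a whole group) and the anthocyanin and flavonoid genes (right); filled symbols have an adjusted p below 0.05. At 24 h 13 of 18 anthocyanin and flavonoid genes are filled and above 0, and at 0 h none of them is filled in this fit of all 17 libraries.

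The 24 h counts of these lists rested on the libraries to different degrees. The anthocyanin and flavonoid count stayed between 12 and 13 with each library left out in turn. The jasmonate count was 8 without replicate 1 or replicate 3 of atdgcr14l-1 at 24 h and 18 without replicate 2, and it was 7 without both libraries that stood apart. At 0 h the jasmonate count of 2 became 0 without any one of 7 of the 0 h libraries, and 1 without replicate 2 of OE-6 at 0 h or replicate 3 of Col-0 at 24 h.

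Heat shock genes had a list median of 0.852 over 20 genes, or 0.656 without 3 listed at 0 in a whole group, and 0 were called. With each library left out in turn, the list median ran from 0.136 to 1.18. At 24 h, 8 of the 20 were higher in the mutant and 0 lower, where 11.1% of all tested genes were higher. That count was 0 without replicate 3 of atdgcr14l-1 at 24 h, 2 without replicate 1 and 4 without replicate 2 of Col-0 at 24 h, and 3 without replicate 2 or replicate 3 of OE-6 at 24 h. HSP70 averaged 154 ± 185 CPM in atdgcr14l-1, 36.6 ± 5.32 CPM in OE-6 and 45.5 ± 7.53 CPM in Col-0 at 24 h (SD, n = 3 each), a spread larger than the mean in the mutant. Beside the same 11.1%, ethylene genes had 6 of 20 higher in the mutant at 24 h, and likewise 0 without replicate 3 of atdgcr14l-1 at 24 h, 1 without replicate 1 of Col-0 and 3 without replicate 2 of Col-0 at 24 h. Cell wall loosening genes had 9 of 20 higher at 24 h, 4 without replicate 3 of atdgcr14l-1 at 24 h and 2 without both libraries that stood apart. In the cell wall list the smallest p of the pooled difference belonged to EXPA10, an expansin, at 1.46 ± 0.48 (adjusted p = 0.298).

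Some cold-regulated genes were lower in the mutant at each time, and 0 had a called pooled difference. At 24 h 9 of 20 were lower, beside 7.58% of all tested genes, and 0 higher. At 0 h 7 were lower, beside 1.87% of all tested genes, and 0 higher. COR15A, which encodes a protein that protects chloroplast membranes in freezing, was at 569.7, 375 and 908 CPM in atdgcr14l-1, at 568, 1188 and 933 CPM in OE-6 and at 1329, 1239 and 1035 CPM in Col-0 at 24 h. At 0 h COR15A was at 2.69, 6.31 and 2.77 CPM in atdgcr14l-1, at 59.9, 30.0 and 24.7 CPM in OE-6 and at 44.4 and 42.5 CPM in Col-0. The groups were far apart at 0 h and overlapped at 24 h. COR15A was lower in the mutant than on the mean of OE-6 and Col-0 by 3.37 ± 0.44 at 0 h (adjusted p = 0.000485). Its pooled difference was 2.63 ± 0.53 (adjusted p = 0.0944). CBF3, a transcription factor that activates such genes, averaged 5.17 ± 0.442 CPM in atdgcr14l-1, 16.2 ± 7.28 CPM in OE-6 and 16.0 ± 1.81 CPM in Col-0 at 24 h (SD, n = 3 each), and its pooled difference was -0.02 ± 0.32. The 24 h count was 4 without replicate 3 of atdgcr14l-1 at 24 h and 6 without both libraries that stood apart, and the 0 h count was 11 without both.

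The other lists held no called gene. In all, 31 of 33 lists had none, and their medians ran from -0.59 (flower) to 0.852 (heat shock). Of the 15 called genes, only LOX3 and UGT75C1 were on a list. IGMT5 was thus not in the glucosinolate list, SWEET16 not in the sugar list and AT3G43270 not in the cell wall list. Of 47 ABA and osmotic stress genes 30 had a value above 0, beside 50.5% of all tested genes, with a median of 0.095. CYP707A1, which breaks down ABA, had the smallest p of that list, at 1.87 ± 0.47 (adjusted p = 0.175). NHX1, the vacuolar sodium and proton exchanger, had 0.41 ± 0.17 (adjusted p = 0.409), in a transport list with a median of 0.0422. Auxin response genes had a median of -0.357, with 17 of 21 below 0 and 4 above it, beside the same 50.5% above 0. IAA19, an auxin-induced repressor, had -1.10 ± 0.24 (adjusted p = 0.119).

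The splicing factor lists had little difference, and the called kinase gene AT3G25840 described above is in neither of them. The median was 0.0253 over 20 SR splicing factors and 0.0373 over 35 other splicing factors, with 0 called in each. RS31A, an SR protein, had the smallest p of its list at -0.19 ± 0.12 (adjusted p = 0.608), and LSM5, a subunit of a small nuclear RNA-binding ring, had -0.41 ± 0.16 (adjusted p = 0.374). By exon number, the median pooled difference was -0.0494 for genes of 1 exon, -0.00216 for 2 to 5 exons, 0.0203 for 6 to 10 exons and 0.0322 for over 10 exons. Against Col-0 alone the medians of these classes were -0.0642, -0.0259, 0.0101 and 0.0619. Against OE-6 alone they were -0.0225, 0.0266, 0.0281 and -0.00327, so the 2 lines did not share a rise over all classes. The called genes of these classes numbered 2, 7, 5 and 1, or 0.0577%, 0.0753%, 0.0964% and 0.0313% of each.

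**Figure D5:**
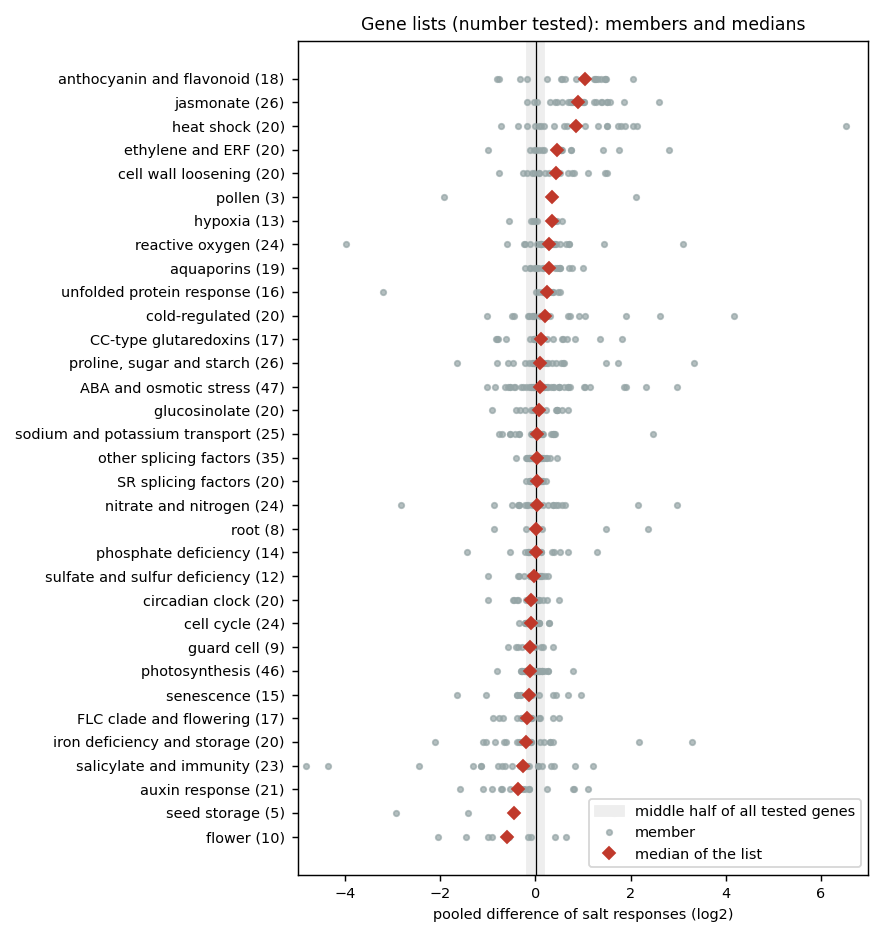
Pooled difference (log2) of every tested member (grey points) of the 33 gene lists, with the list median (red diamond) and the number tested in brackets; the grey band spans the quartiles of all tested genes, -0.17 to 0.181. Anthocyanin and flavonoid, jasmonate and heat shock lists have the highest medians with all libraries, 1.04, 0.90 and 0.852. With each library left out in turn, they ran from 0.702 to 1.12, from 0.765 to 1.07 and from 0.136 to 1.18, in that order.

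The number of called genes rested on single libraries, and so did the absence of negative calls. No gene was called without replicate 2 of Col-0 at 0 h (1775 at an unadjusted p below 0.05), without replicate 1 of atdgcr14l-1 at 0 h (1729) or without replicate 3 of atdgcr14l-1 at 0 h (1741). The count was 1 without replicate 2 of atdgcr14l-1 at 0 h, 2 without replicate 1 of OE-6 at 0 h or replicate 3 of Col-0 at 24 h, 3 without replicate 2 of Col-0 at 24 h, and 4 without replicate 1 of Col-0 or replicate 3 of OE-6 at 0 h. It was 7 without replicate 1, 229 without replicate 2 and 11 without replicate 3 of atdgcr14l-1 at 24 h. It was 90 without replicate 1, 24 without replicate 2 and 34 without replicate 3 of OE-6 at 24 h. Negative calls, 0 with all libraries, numbered 63 without replicate 2 and 3 without replicate 3 of atdgcr14l-1 at 24 h. They numbered 16 without replicate 1 of OE-6 at 24 h, 3 without replicate 2 or replicate 3 of OE-6 at 24 h, and 1 without replicate 1 of Col-0 or replicate 3 of OE-6 at 0 h. All 15 genes kept a positive pooled difference in every analysis that tested them, the lowest value being 0.783. Their calls held less often. UGT75C1 kept its call in 9 of 25 alternative analyses, AT1G17830 and AT3G25840 in 10 each, and SWEET16 in 10 of 24. AT4G02360 kept its call in 11 of 25 and LOX3 in 13 of 25. DESeq2 called 315 genes, 231 positive and 84 negative, among them all 15.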

How the data were processed

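Libraries were poly(A)-selected and stranded by dUTP, per the labels. The authors deposited 1 estimated count per gene and library, in whole numbers. StringTie 2.1.7, Bowtie2 2.4.5 and, under the version 2.11.40.7, DESeq2 are tools listed in the processing notes of the submitters. The genome build and the counting strand were not given in the sources used here, so reads of overlapping antisense genes cannot be told apart. The value 2 (8767 times) was commoner than 1 (2703) or 3 (4203), and some counts may be faulty. Replicate numbers follow the sample titles, and for replicate 2 of Col-0 at 0 h the file carries another number, on which the replicate block depends. Genes were tested with edgeR 4.0.16 in R 4.3.3 (filterByExpr, TMM scaling, robust quasi-likelihood fit, 6 group means, 11 residual degrees of freedom, no covariate). Standard errors are the log2 value over the square root of F, and none is given where a group was at 0. Levels are CPM with TMM factors. DESeq2 1.42.0 was an alternative. Library totals of 53058673 to 56464259 bound the counting error, and the biological coefficient of variation was 19.5%. No 2 replicates agreed within sampling noise. Gene names, exons and promoters came from TAIR10.1 (RefSeq) by locus, for 27445 of 27655 loci. By rule, named genes were AtDGCR14L, the 10 largest called differences and the called or smallest-p genes of a list. The other called genes, those near the threshold and the further list examples were added after their values were seen. The members and the 33 lists were chosen with earlier results of these data known. The fit was run on simulated counts in which no library stood apart. That run cannot show how far the calls rest on single libraries.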

Additional observations from a re-analysis of the deposited data

Results flagged for a closer look

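Each gene below was picked out because its change with salt differed between atdgcr14l-1 and the lines that express AtDGCR14L, by edgeR's quasi-likelihood test of that difference with an adjusted p below 0.05. The pooled difference (log2) was 2.88 for AT1G65240, 1.87 for IGMT5, 1.63 for AT14A, 1.53 for AT2G16660 and 1.52 for AT4G02360. It was 1.48 for UGT75C1, 1.47 for AT3G43270, 1.44 for ANNAT4, 1.39 for LOX3 and 1.23 for ANNAT3. It was 1.17 for SWEET16, 1.11 for MEB1, 1.05 for AT1G17830, 0.94 for AT1G33260 and 0.87 for AT3G25840. Against Col-0 alone, the difference of HEI10 was 2.196, and OE-6 did not share the Col-0 pattern. Against OE-6 alone, the differences were 2.01 for IGMT5 and 1.86 for AT14A, and the value of AT14A is uncertain for its neighbouring copy.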

How the results depend on the processing

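The 15 called genes became 315 with DESeq2 (231 higher, 84 lower), 3 with the replicate block (3 higher), 40 with Col-0 and OE-6 joined as 1 group (34 higher, 6 lower), and 44 without both libraries that stand apart (32 higher, 12 lower). The 3 genes called with the replicate block were IGMT5, AT14A and ANNAT3. With a mean of at least 5 CPM 17 were called, 4 of them lower. RLE scaling called 15, no filter 10 and leaving out organelle genes 11. With each library left out in turn, the count ran from 0 to 229 (higher 0 to 166, lower 0 to 63), and a group left with 1 library is assumed to vary like the others. The comparison against Col-0 called 116 with DESeq2, 0 with the block, 6 without both libraries and 0 to 14 with 1 library out. The comparison against OE-6 called 233 with DESeq2, 12 without both libraries and 0 to 68 with 1 out. The counts against OE-6 were 63 without replicate 1 and 60 without replicate 3 of OE-6 at 24 h. The comparison of OE-6 with Col-0 called 8 with DESeq2 and 0 to 26 with 1 out. The 0 h gap called 1870 genes with DESeq2, 2243 without both libraries and 574 to 1606 with 1 out, and the 24 h gap 2303 without both and 1940 to 5221 with 1 out. Salt response counts ran from 11044 to 13125 in the mutant and from 12114 to 14017 in the expressing lines with 1 out. The cause of these shifts was not tested. Same-numbered libraries had correlated deviations of -0.0672 to 0.324 over 8 pairs, 2 of them over 0.1. The same-numbered OE-6 pairs had 0.324, 0.151 and 0.0769, and the differently numbered OE-6 pairs ran from -0.23 to 0.113. With 2 or 3 libraries per group, these values cannot settle whether the numbers pair the libraries. No value changed sign while called. The counts of list members at each time were recomputed as alternatives chosen after seeing the data. Low counts limit AT1G65240 and AT4G02360 at 0 h.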
